A study of Mus musculus with 24 samples.

Results

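The plasminogen activator genes Plau, Plat, Plaur and Serpine2 were followed through 24 mouse aortas. They were taken by gene symbol from a count table of 41128 genes, so that 4 of 41128 genes are described here. All 4 were present in the table and all 4 passed the filter on low counts. The aortas came from 5-month-old mice that carried a targeted allele of Ppp3cb (strain B6,129S6-Ppp3cbtm1Jmk/J; knockout, KO) or were wildtype (WT). Ppp3cb encodes 1 of the catalytic isoforms of calcineurin (beta), the calcium-dependent phosphatase that sends NFAT transcription factors into the nucleus. The 8 groups were KO mice on angiotensin II (AngII), KO control mice, WT mice on AngII and WT control mice, each as 3 males and 3 females. AngII, a vasoconstrictor hormone that raises blood pressure, was released by implanted osmotic minipumps over 4 weeks, at 500 ng per kg body weight and min. Neither pumps in the control mice nor littermates as WT mice are mentioned in the labels, which also leave out what the allele lacks of Ppp3cb. Each library came from 1 mouse, so the p-values below measure the spread between mice.

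Plasminogen circulates as an inactive precursor and is cut into plasmin, a protease that dissolves fibrin, degrades matrix proteins and activates matrix metalloproteinases. The cut is made by tissue-type plasminogen activator, the product of Plat, which endothelial cells are known to release and which works best on fibrin, and by urokinase, the product of Plau, which works at cell surfaces when bound to its receptor, the product of Plaur. Serpins trap the activators in irreversible complexes. Serpine2 encodes protease nexin-1, a cell-associated serpin that inhibits thrombin, urokinase and plasmin.

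The 4 genes lie on 4 chromosomes of the mm10 build. Plau (ENSMUSG00000021822) spans positions 20836660 to 20843385 of chromosome 14 on the plus strand. It starts 290.1 kb beyond the far end of the targeted gene Ppp3cb, which spans 20499364 to 20546573 on the minus strand. Plat (ENSMUSG00000031538) spans 22757727 to 22782844 of chromosome 8 on the plus strand. Plaur (ENSMUSG00000046223) spans 24462484 to 24475968 of chromosome 7 on the plus strand. Serpine2 (ENSMUSG00000026249) spans 79794197 to 79861180 of chromosome 1 on the minus strand. No other annotated gene overlaps any of the 4, and all counts are sums over exons.

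Promoters of Plaur and Serpine2 were available from RefSeq (GRCm38.p6, the assembly behind mm10), and those of Plau and Plat were not used here. They are shown because the study removes a subunit of calcineurin, whose target NFAT binds next to AP-1 on many promoters. Each runs from 250 bases before to 50 bases after the RefSeq start, at chr7:24462233-24462532 on the plus strand for Plaur and at chr1:79858616-79858915 on the minus strand for Serpine2. Capitals mark every match to 4 motifs, searched on either strand. The first was the core of an NFAT site, with the letters GGAAA. The AP-1 site was searched for by the letters TGAGTCA, to which Fos and Jun proteins bind. A GC box, the site that Sp1 proteins bind, had the letters GGGCGG, and such boxes may overlap one another. The TATA box, where the basal transcription machinery is placed on some promoters, had the letters TATAAA.
Plaur: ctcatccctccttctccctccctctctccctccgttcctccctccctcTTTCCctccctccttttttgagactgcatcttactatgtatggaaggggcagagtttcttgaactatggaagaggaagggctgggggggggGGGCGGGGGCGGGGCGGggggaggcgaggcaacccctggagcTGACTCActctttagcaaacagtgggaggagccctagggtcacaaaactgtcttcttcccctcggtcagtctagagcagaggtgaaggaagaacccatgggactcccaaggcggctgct
Serpine2: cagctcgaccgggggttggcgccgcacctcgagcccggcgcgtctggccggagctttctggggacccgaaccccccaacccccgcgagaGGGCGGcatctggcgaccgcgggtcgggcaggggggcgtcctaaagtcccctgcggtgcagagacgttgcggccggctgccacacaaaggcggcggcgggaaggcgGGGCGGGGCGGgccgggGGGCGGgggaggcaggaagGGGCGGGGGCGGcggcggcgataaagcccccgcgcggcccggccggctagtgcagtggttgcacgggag
The Plaur promoter held 1 NFAT core, 1 AP-1 site and 3 GC boxes. The Serpine2 promoter held 6 GC boxes and neither of the other sites. Neither held the TATA letters. Among all 32851 RefSeq promoters of the same length, 61.3% held the NFAT core, 5.2% the AP-1 site, 35.7% a GC box and 13.6% the TATA letters. The Plaur promoter was 59.3% G and C and the Serpine2 promoter 77.7%, against a median of 52.7% over all promoters. These matches describe the letters in the window and nothing more.

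Library totals ran from 1523328 to 6352365 counts (median 3835993). Genes on chromosomes 9, X, Y and MT (6021 genes) and those of the far end of chromosome 8 had 0 counts in every library and were not analysed here; Plat lies in the measured stretch of chromosome 8. KO control females 1 and 3 stood apart from the other 22 libraries, with effective library sizes (total counts after TMM scaling) of 1570303 and 1804278, against 2708768 to 6047601 elsewhere. Their olfactory and vomeronasal receptor genes summed to 1992 and 1893 CPM (counts scaled to a common library size) of the protein-coding total, against 111 to 1073 elsewhere. KO control female 2, at an effective size of 2779249 and 1002 CPM of receptor genes, lay within the range of the other libraries but near its ends. The 1073 CPM was that of KO AngII female 1, and the next value outside the KO control females was 646 CPM. The total of KO control female 2, 2401264 counts, was below that of every library outside its group. Ppp3cb averaged 21.6 ± 5.20 CPM in KO AngII mice, 21.0 ± 7.41 in KO controls, 42.2 ± 13.8 in AngII-treated WT and 41.7 ± 8.25 in WT controls (SD, n = 6 each), a change of -1.01 ± 0.16 on the log2 scale over all mice (SE; edgeR, adjusted p = 0.000177). That call was lost in females alone (-0.86, adjusted p = 0.0992) and with the receptor share as a covariate (-1.07, adjusted p = 0.233). Contractile smooth muscle markers, which define the wall of the aorta, summed to 7136 to 21920 CPM over all libraries, with Cnn1 on chromosome 9 at 0. In whole aortas, fewer cells of a type and less RNA per cell cannot be told apart.

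Per kilobase of exon, Serpine2 was the most abundant of the 4 genes, at 34.5 ± 14.5 CPM per kb over the 24 libraries (SD). Plat followed at 6.91 ± 3.68 CPM per kb. Plau at 2.48 ± 1.58 and Plaur at 1.74 ± 1.04 CPM per kb overlapped within their spread. The depth behind these genes differed as much. Serpine2 had 188 to 2330 counts per library and Plat 8 to 396, while Plau had 0 to 68 and Plaur 0 to 60. Plau had 0 counts in KO control female 1, which allows up to 1.91 CPM (3 counts), and Plaur had 0 counts in WT control male 2, which allows up to 0.707 CPM. At 68 counts, the highest Plau value of 16.7 CPM carried a 95% Wilson interval of 13.2 to 21.2 CPM, which covers counting error only.

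**Figure D1:**
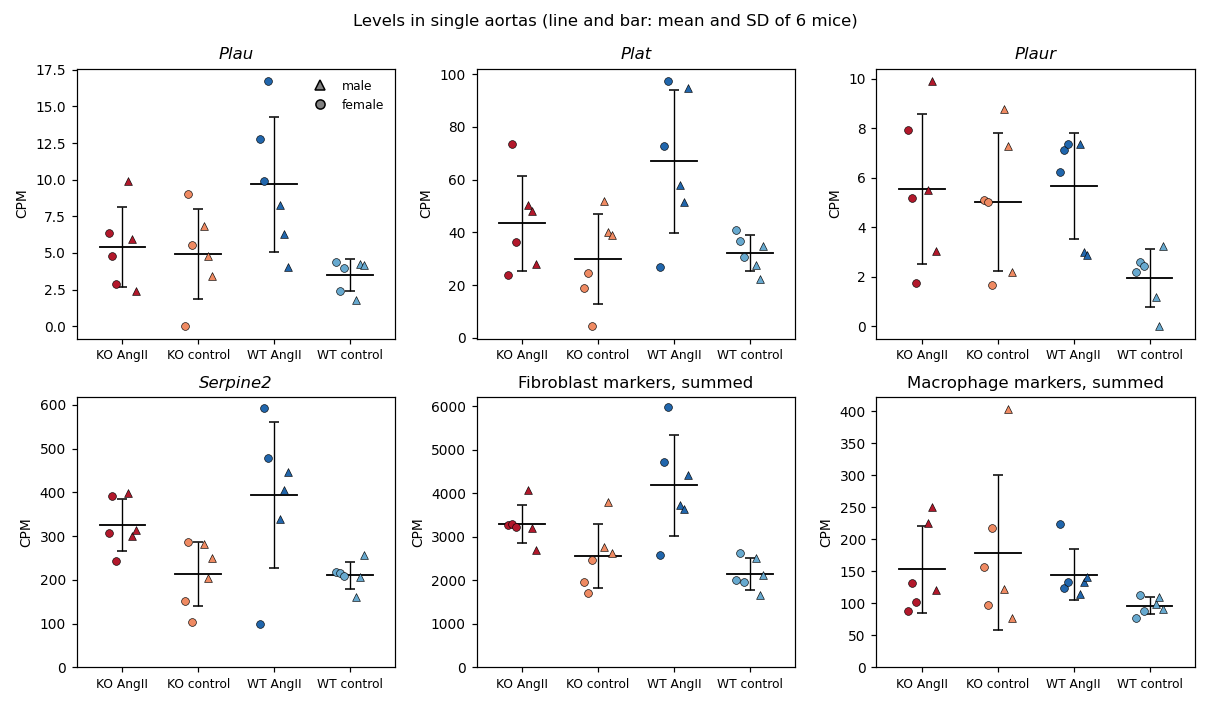
Level in CPM of Plau, Plat, Plaur and Serpine2, and the summed CPM of 8 fibroblast and of 9 macrophage markers, in each aorta of the 4 genotype and treatment groups. Points are mice (circles female, triangles male), lines are means and bars SD of 6 mice. All 4 genes had their highest group mean in WT AngII mice, where 1 female had 27.0 CPM of Plat and 98.3 CPM of Serpine2.

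The first comparison asked what AngII does in WT aortas. All 4 genes had higher means with AngII, from 0.90 log2 for Serpine2 to 1.52 log2 for Plaur, and none passed the threshold of an adjusted p under 0.05. All 4 had an unadjusted p under 0.05 in edgeR. DESeq2 called none of them and limma-voom with quality weights called Plat and Serpine2. Over all 16316 genes tested, 0.208% were called by edgeR in this comparison (34 genes, against 1095 with an unadjusted p under 0.05). Calls were more common over the whole table in the other fits named below. DESeq2 called 80 genes, limma-voom 329, edgeR with no count filter 134 and edgeR without WT AngII female 1 called 86.

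Plat, the tissue-type activator, had a lowest, median and highest value of 27.0, 65.5 and 97.5 CPM in the 6 WT AngII mice, against 22.4, 32.8 and 41.0 CPM in the 6 WT controls. In the AngII males the values were 58.0, 51.5 and 94.9 CPM and in the AngII females 27.0, 72.9 and 97.5 CPM. Of the AngII libraries, 5 lay above every control library and the sixth, female 1, lay among the controls. The means were 66.97 ± 27.1 CPM with AngII and 32.3 ± 6.69 CPM in controls (SD, n = 6 each), a change of 1.06 ± 0.30 log2 or 2.09-fold (SE; edgeR, adjusted p = 0.233). With limma-voom and quality weights it was 1.04 ± 0.23 (adjusted p = 0.0114), with no count filter 1.07 ± 0.25 (adjusted p = 0.0061), and without WT AngII female 1 it was 1.24 (edgeR, adjusted p = 0.03).

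Plau, the urokinase gene, had 4.03, 9.10 and 16.7 CPM as lowest, median and highest value in WT AngII mice, against 1.77, 4.07 and 4.396 CPM in WT controls. In males 2 of the 3 AngII libraries lay above every control, at 8.29 and 6.30 CPM, and the third, at 4.03 CPM, lay among controls of 1.77, 4.24 and 4.19 CPM. The 3 AngII females had 12.8, 9.91 and 16.7 CPM, and the 3 control females 4.396, 2.39 and 3.95 CPM. The female groups did not overlap. How many of all genes part 3 against 3 libraries in this way was not counted, here or for the separations given below. Over both sexes the means were 9.67 ± 4.58 and 3.49 ± 1.12 CPM (AngII and control; SD, n = 6 each), a change of 1.36 ± 0.54 log2 (SE; edgeR, adjusted p = 0.559). The change was 0.85 ± 0.76 in males and 1.88 ± 0.76 in females, and the test of the male minus the female change gave -1.03 ± 1.07 (edgeR, adjusted p = 1.00).

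Plaur, the urokinase receptor, ranged from 2.88 to 7.38 CPM in WT AngII mice (median 6.68) and from 0 to 3.26 CPM in WT controls (median 2.31). The AngII females had 6.25, 7.11 and 7.38 CPM and lay above all 3 control females, at 2.198, 2.61 and 2.43 CPM. The AngII males had 7.37, 3.01 and 2.88 CPM, and the last 2 of these fell among the control males, at 1.18, 0 and 3.26 CPM. The means of 5.67 ± 2.15 CPM with AngII and 1.95 ± 1.17 CPM in controls (SD, n = 6 each) differed by 1.52 ± 0.63 log2 (SE; edgeR, adjusted p = 0.599). The value was 2.19 log2 without WT control male 3, the control with the highest Plaur level, and 1.22 log2 without WT control male 2, which had 0 counts. These values rest on 10 to 30 counts with AngII and 0 to 14 counts in controls.

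Serpine2, protease nexin-1, had 98.3, 426 and 592 CPM as lowest, median and highest value in WT AngII mice, against 160.0, 212 and 258 CPM in WT controls. The AngII males had 339, 405 and 447 CPM, all above the control males at 160.0, 206 and 258 CPM. The AngII females had 592 and 479 CPM in replicates 2 and 3 and 98.3 CPM in replicate 1, which lay below all 6 controls. The change was 0.90 ± 0.27 log2, or 1.87-fold (SE; edgeR, adjusted p = 0.284). It was called with limma-voom and quality weights (0.94 ± 0.20, adjusted p = 0.00655), with no count filter (0.91 ± 0.21, adjusted p = 0.00423), and in edgeR without WT AngII female 1 (1.12, adjusted p = 0.00317).

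The 51 other genes of the system came from 4 lists, and 20 of the 33 tested had higher values with AngII in WT, with a median of 0.15 log2 against -0.01 over all genes. edgeR called none of these 33 and DESeq2 none, and 5 had an unadjusted p under 0.05 in edgeR. limma-voom called 4 of them, against 329 genes over the whole table. Of the 7 tested serpins and inhibitors, 5 were higher (median 0.36), and edgeR called none and limma-voom 1. Of 12 tested clearance receptors and surface partners, 7 were higher (median 0.27), and edgeR called none and limma-voom 2. Among these Itgb5, the integrin beta 5 subunit that pairs with the alpha v chain to bind vitronectin, differed by 0.66 ± 0.20 log2 (edgeR, adjusted p = 0.277). It was called with limma-voom (0.74, adjusted p = 0.00216) and in edgeR without WT AngII female 1 (0.79, adjusted p = 0.0393). Lrp1, the endocytic receptor that clears activator and serpin complexes, differed by 0.41 ± 0.18 (edgeR, adjusted p = 0.662) and was called with limma-voom (adjusted p = 0.0216). Of 8 tested coagulation proteases and thrombin receptors, 5 were higher (median 0.46), and edgeR called none and limma-voom 1. F13a1, the factor that crosslinks fibrin, differed by 0.83 ± 0.24 (edgeR, adjusted p = 0.246; limma-voom 0.87, adjusted p = 0.0223). The thrombin receptor F2r differed by 0.94 ± 0.31 (edgeR, adjusted p = 0.401). Of 6 tested genes of plasminogen, its receptors and fibrinolysis, 3 were higher (median -0.04) and none was called by edgeR, DESeq2 or limma-voom. The plasminogen receptor Plgrkt differed by -0.20 ± 0.32 and thrombomodulin, Thbd, by 0.15 ± 0.20. Anxa2 and Itgb1 lie in the unmeasured regions.

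Markers of other cells moved with these values in WT. Macrophage markers were higher with AngII in 7 of 9 cases (median 0.62 log2, none called by edgeR or limma-voom, 1 by DESeq2, 3 with an unadjusted p under 0.05 in edgeR) and summed to 114 to 225 CPM with AngII, against 76.9 to 113 CPM in controls. Fibroblast markers were higher in 7 of 8 cases, with 2 called by edgeR (median 0.45 log2), and summed to 2583 to 5980 CPM with AngII, against 1659 to 2616 CPM in controls. Endothelial markers were lower in 8 of 9 cases (median -0.67 log2, none called by edgeR or DESeq2, 2 by limma-voom, 6 with an unadjusted p under 0.05 in edgeR), at 381 to 1145 CPM with AngII, against 477 to 2091 CPM in controls, with Cdh5 in an unmeasured region at 0. Female 1 of the WT AngII group, which was low in Plat and Serpine2, had the highest macrophage sum (225 CPM) and the lowest fibroblast sum (2583 CPM) of its group. It also had the highest endothelial sum, at 1145 CPM, against 381 to 592 CPM in the rest of the group. Its contractile smooth muscle sum was the lowest of the group, at 12370 CPM. The part of these markers in the 4 genes was not tested.

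**Figure D2:**
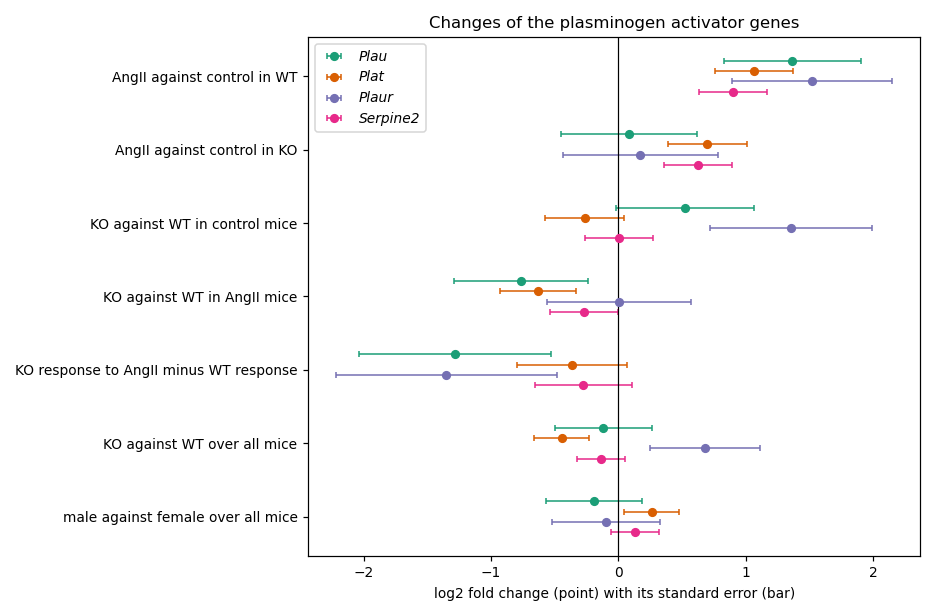
Changes on the log2 scale (points) with their standard errors (bars) for Plau, Plat, Plaur and Serpine2 in 7 comparisons of 24 aortas. In WT mice AngII gave values from 0.90 for Serpine2 to 1.52 for Plaur, and none of the 4 genes had an adjusted p under 0.05 by edgeR in any of the 7 comparisons.

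The second comparison asked what AngII does in KO aortas. The changes were 0.70 ± 0.31 log2 for Plat, 0.62 ± 0.27 for Serpine2, 0.17 ± 0.61 for Plaur and 0.08 ± 0.54 for Plau (SE), and none was called (edgeR, adjusted p = 0.601 to 0.997). Plat and Serpine2 had an unadjusted p under 0.05, and neither DESeq2 nor limma-voom called any of the 4. Of all genes tested, 0% were called by edgeR, with 1258 at an unadjusted p under 0.05, while DESeq2 called 20.

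Serpine2 had 243, 311 and 399 CPM as lowest, median and highest value in KO AngII mice, against 104, 227 and 286 CPM in KO controls. All 3 AngII males, at 399, 299 and 315 CPM, lay above the control males at 283, 204 and 250 CPM (means 337 ± 53.6 and 246 ± 39.7 CPM; SD, n = 3 each). Over both sexes, 5 of 6 AngII libraries exceeded every control. Plat had 24.02, 42.4 and 73.5 CPM in KO AngII mice, against 4.43, 31.7 and 52.0 CPM in KO controls, and 1 AngII library exceeded every control. Its values differed by sex. In males it was 50.2, 48.3 and 28.2 CPM with AngII, against 52.0, 40.2 and 38.9 CPM in controls (-0.05 ± 0.42 log2, edgeR, adjusted p = 1.00). In females it was 24.02, 73.5 and 36.4 CPM with AngII, against 19.1, 24.5 and 4.43 CPM in controls (1.45 ± 0.46, adjusted p = 0.187). The test of the male minus the female change gave -1.50 ± 0.62 (edgeR, adjusted p = 0.596). The female value rests on the KO control females, the 3 libraries with the lowest total counts, whose Plat counts were 30, 68 and 8. Without them, with males alone left to compare, the KO change was -0.03 ± 0.37 log2.

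Plau and Plaur overlapped widely between KO AngII and KO control mice. Plau had 2.40 to 9.90 CPM with AngII (median 5.38) and 0 to 8.995 CPM in controls (median 5.17). Plaur had 1.75 to 9.92 CPM with AngII (median 5.34) and 1.66 to 8.79 CPM in controls (median 5.07). For each of these genes 1 of 6 AngII libraries exceeded every control. The Plau change was 0.50 log2 without KO control female 2 and -0.33 log2 without KO control females 1 and 3, a pair left out after the data had been seen.

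Of the 33 other genes of the system tested, 17 were higher with AngII in KO and none was called by edgeR, DESeq2 or limma-voom (4 with an unadjusted p under 0.05), with a median of 0.03 log2 against 0.01 over all genes. The smallest p-values among the clearance receptors were those of Mrc2, the collagen receptor that forms a complex with urokinase and its receptor (0.79 ± 0.24, edgeR, adjusted p = 0.36), Itgb5 (0.58 ± 0.20, adjusted p = 0.443) and Lrp1 (0.35 ± 0.18, adjusted p = 0.658). The value of Mrc2 was -0.05 without the KO control females. Itgb5 was called without KO control female 2 (0.80, edgeR, adjusted p = 0.0478), in a fit that called 113 genes over the whole table. That fit kept KO control females 1 and 3 as the only female KO controls. Fibroblast markers were higher with AngII in KO in 5 of 8 cases (median 0.13 log2, none called by edgeR, DESeq2 or limma-voom, 2 with an unadjusted p under 0.05) and summed to 2687 to 4073 CPM with AngII, against 1710 to 3806 CPM in controls. In females these sums were 3213 to 3300 CPM with AngII and 1710 to 2468 CPM in controls, without overlap. Contractile smooth muscle markers were higher in 6 of 7 cases (median 0.21 log2, none called by edgeR, DESeq2 or limma-voom, 2 with an unadjusted p under 0.05). In females they averaged 14070 ± 2847 CPM with AngII and 9196 ± 2034 CPM in controls (SD, n = 3 each). The part of these markers in the Plat and Serpine2 values was not tested. Macrophage markers were lower with AngII in KO in 7 of 9 cases (median -0.51 log2, none called by edgeR, DESeq2 or limma-voom and none with an unadjusted p under 0.05), at 88.2 to 250.3 CPM with AngII, against 76.6 to 404 CPM in controls. Endothelial markers were lower in 8 of 9 cases (median -0.37 log2, 1 with an unadjusted p under 0.05), and none was called by edgeR, DESeq2 or limma-voom. Nerve and Schwann cell markers were lower in 8 of 8 cases (median -1.86 log2). Of these, edgeR called none, DESeq2 called 1, and 5 had an unadjusted p under 0.05. With AngII in WT, nerve and Schwann cell markers were lower in 7 of 8 cases (median -1.16 log2).

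The difference between the AngII responses was tested as an interaction, the KO change minus the WT change. It was negative for all 4 genes, at -1.35 ± 0.87 log2 for Plaur, -1.28 ± 0.76 for Plau, -0.37 ± 0.43 for Plat and -0.28 ± 0.38 for Serpine2 (SE; edgeR, adjusted p = 1.00 for each). The Plaur value was -1.99 without WT control male 3. None of the 4 had an unadjusted p under 0.05, and DESeq2 and limma-voom called none. Over all genes 0% were called by edgeR, with 657 at an unadjusted p under 0.05. Of the 33 other genes tested, 12 were above 0 (median -0.08 log2, against 0.04 over all genes) and none was called by edgeR. Macrophage markers were below 0 in 8 of 9 cases (median -0.71 log2, 4 with an unadjusted p under 0.05). Other marker lists were as one-sided. Nerve and Schwann cell markers were below 0 in 8 of 8 cases (median -0.74) and fibroblast markers in 7 of 8 (median -0.47). Above 0 were endothelial markers in 9 of 9 cases (median 0.22), and contractile smooth muscle and adipocyte markers in 6 of 7 each (medians 0.18 and 0.52). The part of any of these lists in the Plau and Plaur values was not tested. In the sexes apart, the interaction for Plat was -1.31 ± 0.60 in males and 0.58 ± 0.62 in females, and for Plau -0.59 ± 1.06 in males and -1.98 ± 1.08 in females.

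KO and WT aortas were compared next, first in control mice. Plaur had 5.01 ± 2.78 CPM in KO controls and 1.95 ± 1.17 CPM in WT controls (SD, n = 6 each), a difference of 1.35 ± 0.63 log2 (SE; edgeR, adjusted p = 0.489), which was 1.97 without WT control male 3. KO control females had 5.09, 5.04 and 1.66 CPM and KO control males 8.79, 7.30 and 2.19 CPM, so that 4 of 6 KO libraries lay above the highest WT control, at 3.26 CPM. Plau was at 4.93 ± 3.07 CPM in KO and 3.49 ± 1.12 CPM in WT (0.52 ± 0.54 log2). Serpine2 was at 213 ± 73.7 CPM in KO and 211 ± 31.2 CPM in WT (0.00 ± 0.27 log2). Plat was at 29.8 ± 17.2 CPM in KO and 32.3 ± 6.69 CPM in WT (-0.26 ± 0.31 log2). None of the 4 was called by edgeR, DESeq2 or limma-voom, and Plaur was the 1 gene with an unadjusted p under 0.05. Over all genes 0.221% were called by edgeR. The WT controls enter both this comparison and that of AngII in WT, so the 2 Plaur values share the same low WT control libraries.

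The Plat mean hid opposite differences in the sexes. KO control males had 52.0, 40.2 and 38.9 CPM and WT control males 27.8, 22.4 and 34.9 CPM, so that every KO male lay above every WT male. KO control females had 19.1, 24.5 and 4.43 CPM and WT control females 41.0, 36.7 and 30.7 CPM, so that every KO female lay below every WT female. The differences were 0.62 ± 0.43 log2 in males and -1.15 ± 0.46 log2 in females, and the male minus the female difference was 1.77 ± 0.63 (SE; edgeR, adjusted p = 0.277). In that test edgeR called 9 of 16316 genes. The means of the contractile smooth muscle markers differed in the same directions. They summed to 9196 ± 2034 CPM in KO control females and 15820 ± 640 CPM in WT control females, without overlap, and to 19490 ± 2058 CPM in KO control males and 17620 ± 3921 CPM in WT control males (SD, n = 3 each). The clearance receptor list summed to 1523 ± 327 CPM in KO control females and 1904 ± 197 CPM in WT control females. In males it summed to 2285 ± 81.9 CPM in KO and 2013 ± 148 CPM in WT, while the smooth muscle sums overlapped. Fibroblast sums averaged 2049 and 2194 CPM in KO and WT control females, and 3068 and 2098 CPM in males, without overlap in males. Not every list ran this way. Endothelial sums averaged 956 and 851 CPM in females and 790 and 1175 CPM in males. Macrophage sums averaged 158 CPM in KO and 92.8 CPM in WT in females, and 201 and 100 CPM in males, with overlap in both sexes. The KO male mean rests on KO control male 2, at 404 CPM, beside 122 and 76.6 CPM in males 1 and 3. The part of these differences in the Plat values was not tested.

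Macrophage markers were higher in KO controls in 9 of 9 cases (median 0.90 log2, none called by edgeR, 2 by DESeq2, 5 with an unadjusted p under 0.05). Their sum was 76.6 to 404 CPM in KO controls, against 76.9 to 113 CPM in WT controls, and the top value was that of KO control male 2, a library with 7.30 CPM of Plaur. KO control male 1, with the highest Plaur of the group at 8.79 CPM, had a macrophage sum of 122 CPM. Their part in the Plaur values was not tested.

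In AngII mice, the KO and WT groups overlapped for all 4 genes. Plat had 24.02 to 73.5 CPM in KO (mean 43.4 ± 18.1) and 27.0 to 97.5 CPM in WT (mean 66.97 ± 27.1; SD, n = 6 each), a difference of -0.63 ± 0.30 log2 (SE; edgeR, adjusted p = 0.625). In males all 3 KO libraries lay below every WT library, at 50.2, 48.3 and 28.2 CPM against 58.0, 51.5 and 94.9 CPM. Plau had 9.90, 5.95 and 2.40 CPM in KO AngII males, around the 8.29, 6.30 and 4.03 CPM of WT AngII males (-0.04 ± 0.74 log2). It had 6.34, 4.80 and 2.91 CPM in KO AngII females, all below the 12.8, 9.91 and 16.7 CPM of WT AngII females (-1.48 ± 0.75). The test of the male minus the female difference gave 1.43 ± 1.05 (edgeR, adjusted p = 1.00), and over both sexes the difference was -0.76 ± 0.53 (adjusted p = 0.879). Serpine2 differed by -0.27 ± 0.27 and Plaur by 0.00 ± 0.57. None of the 4 was called by edgeR, DESeq2 or limma-voom, Plat was the 1 gene with an unadjusted p under 0.05, and 0.355% of all genes were called by edgeR.

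Of the 33 other genes of the system tested, 14 were higher in KO than in WT among AngII mice and 20 among controls, with medians of -0.07 and 0.19 log2. edgeR called none in either comparison, with 2 and 7 at an unadjusted p under 0.05. DESeq2 called 1 among the controls, against 178 genes over the whole table.

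Over all 24 mice, KO minus WT was -0.45 ± 0.22 log2 for Plat (SE; edgeR, adjusted p = 0.374), 0.68 ± 0.43 for Plaur, -0.13 ± 0.19 for Serpine2 and -0.12 ± 0.38 for Plau. None of the 4 was called by edgeR, DESeq2 or limma-voom, Plat alone had an unadjusted p under 0.05, and 1.34% of all genes were called by edgeR. Of the 33 other genes of the system, 20 were higher and none was called by edgeR or DESeq2. limma-voom called 1 of them, against 373 genes over the whole table.

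Plau was also looked at as a neighbour of the targeted gene. Of 43 annotated genes that start within 1 Mb of Ppp3cb, 34 were tested and 17 were higher in KO, with a median of -0.01 log2. Plau, at -0.12 ± 0.38 (adjusted p = 0.95), lay between Camk2g, a calmodulin-dependent kinase gene at -0.18 ± 0.11, and Vcl, the vinculin gene at -0.16 ± 0.12, and none of these was called. The 3 calls were Gm2244 (2.65 ± 0.40), Gm2237 (1.95 ± 0.34) and Gm5458 (3.12 ± 0.50), all higher in KO. All 3 genes stayed higher in males alone, at 2.27, 1.39 and 3.195 log2, but none was called (edgeR, adjusted p = 0.349 to 0.573). That fit called 5 genes over the whole table. With the receptor share as a covariate the values were 1.61, 0.95 and 1.99 log2, and none was called (0.7 to 1.00). That fit called 4 genes over the whole table. Gm2244, Gm2237 and Gm5458 sit side by side between 19532896 and 19602581, on the far side of Ppp3cb from Plau. They have systematic names only, and may share reads with one another. Ppp3cb itself was lower, as given above.

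**Figure D3:**
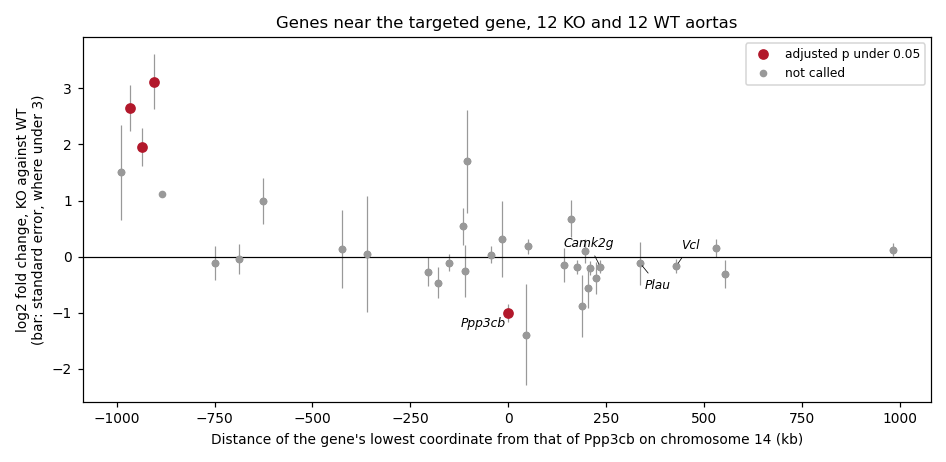
Change on the log2 scale, KO against WT over 24 aortas, of tested genes within 1 Mb of Ppp3cb on chromosome 14, by distance in kb. Bars are standard errors, not drawn for 1 sparsely counted pseudogene; red points have an adjusted p under 0.05. Plau lies near 0 at -0.12, beside Camk2g and Vcl, while 3 genes at the far left lie at 1.95 to 3.12.

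Male and female aortas, averaged over genotype and treatment, differed by 0.26 ± 0.22 log2 for Plat, 0.13 ± 0.19 for Serpine2, -0.10 ± 0.43 for Plaur and -0.19 ± 0.38 for Plau (male minus female, SE; edgeR, adjusted p = 0.541 to 0.943). None of the 4 was called by edgeR, DESeq2 or limma-voom, and none had an unadjusted p under 0.05. In this comparison 5.27% of all genes were called by edgeR. Among the 33 other genes of the system none was called by edgeR, while DESeq2 and limma-voom called 1 each. Over the whole table DESeq2 called 1451 genes. Contractile smooth muscle markers were higher in males in 7 of 7 cases (3 called by edgeR, median 0.44 log2).

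Across the 24 libraries, Plat and Serpine2 varied together. Pearson's r of their log2 CPM was 0.787 (permutation p = 2e-05, adjusted p = 0.00012 over 6 pairs) and Spearman's rho 0.750 (adjusted p = 0.00018). It was 0.719 without KO control female 3 and WT AngII female 3, the 2 libraries farthest from the Plat median, and 0.742 for deviations from the 8 group means. Both genes were lowest in KO control female 3 and WT AngII female 1 among libraries of their groups, and both exceeded the WT controls in the remaining 5 WT AngII mice.

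Plau and Plaur, the ligand and its receptor, gave a rho of 0.636 (permutation p = 0.00088, adjusted p = 0.0026) and an r of 0.363 (p = 0.084, adjusted p = 0.11). The r was 0.584 without KO control female 1, where Plau had 0 counts, and WT AngII female 3, and 0.614 without the 3 KO control females. For deviations from group means r was 0.129, given without a test. The permutations ran over all libraries without regard to group. Their p-values thus also count shifts between groups that both genes share, and do not test covariation within groups. The other 4 pairs had r of 0.324 to 0.396, none with an adjusted p under 0.05. Counts of Plau and Plaur are low and the libraries share their depth differences across all genes.

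**Figure D4:**
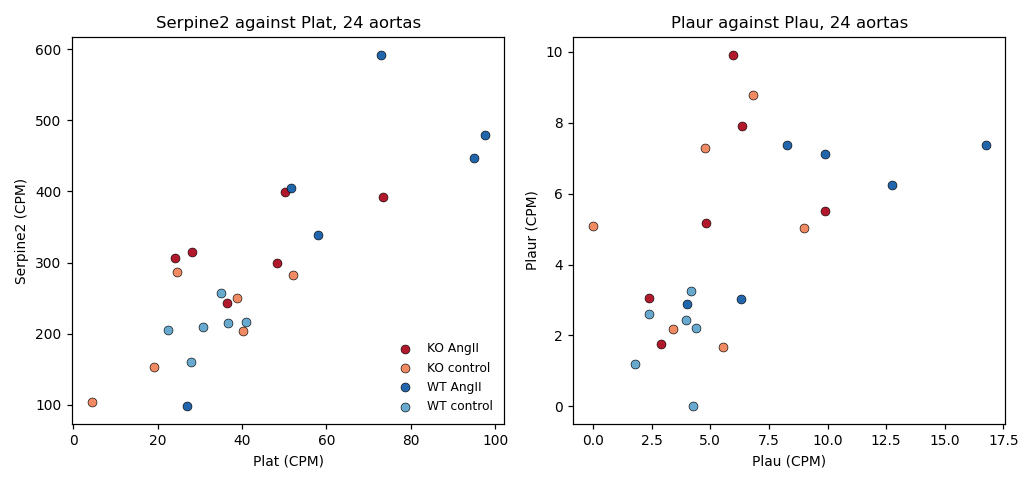
CPM of Serpine2 against Plat (left) and of Plaur against Plau (right), 1 point for each of 24 aortas, coloured by genotype and treatment. Serpine2 and Plat lie along a rising band (r = 0.787 on the log2 scale), with the WT AngII female at 27.0 CPM of Plat below it, while Plaur and Plau scatter (r = 0.363).

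The genes most like each member were taken by Pearson's r of log2 CPM over the 24 libraries, among 7628 or 7629 other protein-coding genes that averaged 3 log2 CPM or more. Serpine2 was most like Mgp (r = 0.861), Fn1 (0.857) and Htra1 (0.857), the genes of matrix Gla protein, fibronectin and a secreted serine protease. Their rho values were 0.872, 0.883 and 0.890, and r stayed at 0.85 to 0.916 without the 2 farthest libraries. Plat was most like Itgb5 (0.856), Mast4 (0.842) and Dok1 (0.838). These fell to 0.762, 0.736 and 0.64 without the 2 farthest libraries, and their rho values were 0.744, 0.708 and 0.659. Plau was most like the tropomyosin gene Tpm3 (0.836), the receptor kinase gene Grk5 (0.797) and the growth factor gene Fgf2 (0.793). Without the 2 farthest libraries these 3 values were 0.558, 0.436 and 0.493, so they rest largely on KO control female 1 and WT AngII female 3. Plaur was most like Cd68 (0.748), a lysosomal protein of macrophages and the first gene of the macrophage list, Nrap (0.745) and Ncstn (0.740). Without the 2 farthest libraries they were 0.464, 0.382 and 0.622. Such values describe these libraries and carry no test.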

How the data were processed

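Total RNA of 24 aortas, 1 library per mouse, was depleted of ribosomal RNA and sequenced on Illumina, per the labels' protocols. Values are raw gene-level counts as deposited. The submitters' processing notes give mm10 as build and featureCounts 1.4.6, Bowtie2 2.2.5, TopHat2 2.0.14 and cutadapt 1.8.1 as tools; settings and strandedness are not given in the sources used here. Groups came from the sample titles and 40254 of 41128 identifiers matched GENCODE M21. No column lacked a sample.

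The filter was filterByExpr with a count of at least 10 and a total of at least 15, and 16316 genes passed. edgeR 4.0.16 (R 4.3.3) fitted 1 quasi-likelihood model with TMM scaling and 8 group coefficients to all libraries. Contrasts averaged over the sexes were given two-sided quasi-likelihood F-tests, adjusted by Benjamini and Hochberg over all 16316 genes and called at an adjusted p under 0.05. Levels are CPM after TMM, with a prior count of 2 on the log2 scale; CPM per kb divides by summed exon length. Relations between the 4 genes used 100000 permutations over all libraries, without regard to group. Scripts were tested on simulated data. Libraries of a group were not copies of one another (chi-square per degree of freedom 7.34 to 116).

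Alternatives were DESeq2 1.42.0, limma-voom 3.58.1 with quality weights, RLE size factors, protein-coding genes without receptor genes, no count filter, 50 counts in 3 libraries, the compared groups alone, each sex alone, leaving out the KO control females, a replicate block, the receptor share as covariate, and leaving out each library. Leaving out KO control females 1 and 3 was added after seeing the data. The 4 genes, the 4 lists of 51 other genes of the system and the 8 marker lists were chosen with earlier results of these data known. Named besides the 4 genes were called list genes or up to 3 per list by smallest p, Ppp3cb, its called neighbours within 1 Mb, the tested protein-coding neighbours of Plau, and the 3 genes most like each member. 1 further gene of these lists is not reported here. The macrophage marker Adgre1 was not analysed here. Reads carried no molecular identifiers, so Wilson intervals and the limits that 0 counts allow cover counting error only.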

Additional observations from a re-analysis of the deposited data

Results flagged for a closer look

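Plat in control mice differed between KO and WT in opposite directions in the sexes. It was 0.6216 log2 in males, where all 3 KO libraries lay above all 3 WT libraries, and -1.149 log2 in females, where all 3 KO libraries lay below all 3 WT libraries. The test of the male minus the female difference gave 1.77 ± 0.63 (SE; edgeR, adjusted p = 0.277). Over the whole table, edgeR called 133 genes for KO against WT in control females, 0 in control males and 9 in the test between the sexes. How many other genes part in opposite directions in the sexes was not counted, so the pattern is not shown to be particular to Plat. The KO control females have the 3 lowest total counts, at 1523328 to 2401264, and the lowest contractile smooth muscle sums of control females (9196 ± 2034 CPM in KO, 15820 ± 640 CPM in WT; SD, n = 3 each); the part of either in the female value was not tested. No library was flagged within its genotype and treatment group by Dixon's test in any of the 16 combinations of the 4 genes and 4 groups. With 6 mice of both sexes a group, that test flags only wide gaps and does not show that no library weighs on a result. WT AngII female 1 was not flagged for Serpine2 (gap over range 0.488, critical value 0.625). Without that library, the edgeR adjusted p of Serpine2 with AngII in WT went from 0.284 to 0.00317.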

How the results depend on the processing

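Of 1002 values of the 4 genes under 37 alternatives, 915 kept their direction and side of the threshold, 6 crossed it and 81 turned direction without ever passing it. Plat and Serpine2 in WT mice on AngII were called with limma-voom (1.04 and 0.94), with no count filter (1.07 and 0.91) and in 1 fit each that left out a library, whose ranges were 0.86 to 1.24 and 0.68 to 1.12. The cause was not tested.

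The values that turned were these. Plau in AngII against control KO mice was -0.11 in females alone and -0.33 without KO control females 1 and 3, in KO against WT over all mice 0.24 in males alone and 0.0554 without those females, and in males against females 0.0304 with the receptor share as covariate. Plat in AngII against control KO mice was -0.0300 in males alone and -0.0344 without the KO control females; KO against WT in controls was 0.60 in both. Its interaction was 0.61 in females alone, and its male against female value -0.12 without the KO control females. Plaur in KO against WT AngII mice was -0.26 with limma-voom, -0.00502 over protein-coding genes without receptor genes, -0.0401 with no filter, -0.45 in females alone, -0.0560 with the replicate block, -0.16 with the receptor covariate and -0.0264 without KO control females 1 and 3. Serpine2 in KO against WT controls was -0.10 with limma-voom, -0.0180 over protein-coding genes without receptor genes, -0.0391 with no filter, -0.00183 with the compared groups alone, -0.23 in females alone and -0.00408 with the replicate block. With the receptor covariate it was 0.0580 in KO against WT AngII mice, 0.13 in KO against WT over all mice and -0.0559 in males against females; it was 0.000976 in KO against WT for males alone, and -0.00941 in males against females without KO control females 1 and 3.

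Leaving out each library gave Plau -0.19 to 0.50 (AngII in KO), -0.36 to 0.0125 (KO over all) and -0.33 to 0.0349 (sex). Plaur gave -0.0914 to 0.39 (AngII in KO), -0.27 to 0.28 (KO in AngII mice) and -0.40 to 0.0777 (sex), Serpine2 -0.31 to 0.0927 (KO in controls) and -0.48 to 0.0139 (interaction), and Plgrkt -0.46 to 0.0236 (AngII in WT). Mrc2 with AngII in KO was -0.0467 in males alone and -0.0516 without the KO control females; Camk2g and Vcl in KO over all mice were 0.0133 and 0.0721 in males alone, and Vcl 0.14 with the receptor covariate.

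Genes called over the whole table, apart from fits that leave out a single library, ranged from 0 to 329 for AngII in WT (34 in the fit reported), 0 to 85 for AngII in KO (0), 0 to 260 and 0 to 200 for KO in control and AngII mice (36 and 58), 0 to 12 for the interaction (0), 4 to 559 for KO over all mice (219) and 12 to 1451 for sex (860). Leaving out a single library gave 5 to 86, 0 to 113, 13 to 399, 35 to 72, 0 to 2, 171 to 624 and 605 to 1562 calls in these 7 comparisons. The top value was without WT AngII female 1 for AngII in WT, and without KO control female 2 for AngII in KO, KO in controls, KO over all mice and sex. The filter of 50 counts in 3 libraries removed Plau and Plaur. Replicate numbers did not pair the samples: of 24 same-numbered pairs 4 correlated above 0.1 (-0.0703 to 0.158), and the replicate block changed no call of the 4 genes. Plau and Plaur, at up to 68 and 60 counts, are limited by depth.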
